A study of Clytia hemisphaerica and Astroides calycularis and Pocillopora acuta with 16 samples.

Results

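GLWamide precursors are the messenger RNAs from which cnidarian neurons make short peptides that end in glycine, leucine and an amidated tryptophan. The members were chosen by gene identifier: 2 genes of Clytia hemisphaerica (pp2-GLWamide, XLOC_017096, and pp11-GLWamide, MSTRG.5804), 1 gene of Astroides calycularis (STRG.15971) and 1 gene of Pocillopora (XP_027060553). These 4 genes were found among 67007 gene models over the 3 species, and all 4 passed the filter on low counts. RNA was sequenced from pools of aboral and oral ends of bisected larvae, and of uncut larvae, in 16 libraries that formed 8 groups of 2. Clytia, a hydrozoan, gave aboral, oral and uncut groups from larvae of the laboratory Z strain. Astroides, a coral, gave the same groups from larvae released by several wild colonies. Pocillopora acuta, also a coral, gave aboral and oral groups, and its replicates came from larvae of parent colonies C5 and C3, which per the study's methods are phenotypes of the same genotype. Pocillopora larvae host dinoflagellate symbionts, their pools held fewer ends than those of the other species, and their reads were counted on the genome of Pocillopora damicornis.

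A neuropeptide precursor is a secreted protein that is cut at pairs of basic residues by proprotein convertases. Carboxypeptidases then trim the ends, and a glycine left at the end supplies the amide group. GLWamide peptides are known from hydrozoans and corals as signals that can trigger settlement and metamorphosis of planulae, the ciliated larvae. Planulae of many cnidarians carry sensory neurons near the aboral pole, the end by which they attach.

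The part of the pp2-GLWamide coding sequence that holds a peptide signature is shown because the precursor is defined by it. It was read from the probe sequence that the study lists for XLOC_017096, of which the end was cut off in the copy used here. The reading frame had 0 stop codons in the 127 codons from the first ATG. The stretch below covers bases 271 to 381 counted from that ATG. The first capitals mark a lysine-arginine pair, where a convertase could cut, and the second capitals mark the codons for glycine, leucine, tryptophan, glycine and arginine, which start 7 codons further on.
pp2-GLWamide, coding strand: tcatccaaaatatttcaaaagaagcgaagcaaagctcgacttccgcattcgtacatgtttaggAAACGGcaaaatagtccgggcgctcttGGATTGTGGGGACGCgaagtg
The glycine after the tryptophan is the residue that could supply the amide. It is followed by arginine, glutamate and valine, so no pair of basic residues comes after it in the stretch shown. Whether the peptide is cut and amidated there was not tested. The signature occurred 1 time in the part read.

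Clytia libraries held 30129270 to 31043438 counts, Astroides libraries 23146999 to 26980344 and Pocillopora libraries 20256336 to 24838448. The labels of the ends were compared with 4 axis genes per species, and 4 of 4 were called at the labelled end in each of the 3 species. The study had already reported the aboral genes among them as enriched in aboral ends of these same libraries. Their outcome was therefore known when they were chosen, and they are not an independent check of the labels. Levels are given as CPM, which are counts per library divided by its total and multiplied up to a fixed depth, with TMM factors applied. They are not compared between genes, since gene lengths were not given in the files. A call means a Benjamini-Hochberg adjusted p under 0.05 over all genes tested in the species with edgeR's two-sided quasi-likelihood test. In pooled larval ends, fewer cells of a type and less RNA per cell cannot be told apart.

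In Clytia, pp2-GLWamide was far higher in aboral than in oral ends. It had 229 and 267 CPM in the aboral ends, 1.56 and 1.49 CPM in the oral ends, and 100 and 118 CPM in the uncut larvae, where each pair gives replicates 1 and 2. The oral values of pp2-GLWamide (XLOC_017096) rested on 49 and 47 counts, so their 95% counting intervals ran from 1.16 to 2.06 CPM and from 1.09 to 1.98 CPM. The 3 groups did not overlap, and the lowest aboral library lay above the highest uncut one. The share of all genes whose groups did not overlap was not counted, so this is a description only. Mean levels of pp2-GLWamide were 248 ± 26.9 CPM in aboral ends, 1.53 ± 0.0508 CPM in oral ends and 109 ± 12.4 CPM in uncut larvae (SD, n = 2 each). The aboral mean was thus 163 times the oral mean. The log2 change, aboral over oral, was 7.34 ± 0.16 (SE), with a 95% interval of 6.98 to 7.70 and an edgeR adjusted p of 5.95e-08. It ranked 20 among 15599 genes ordered by this change, of which 33.2% were called.

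The second Clytia precursor, pp11-GLWamide, was also higher in aboral ends, by a smaller step. It had 24.6 and 17.2 CPM in aboral ends, 4.08 and 2.35 CPM in oral ends, and 12.3 and 8.42 CPM in uncut larvae. The groups of pp11-GLWamide (MSTRG.5804) did not overlap, again without a count over all genes, but replicate 2 was the lower library in all 3 groups. Its means were 20.9 ± 5.28 CPM in aboral ends, 3.21 ± 1.23 CPM in oral ends and 10.4 ± 2.74 CPM in uncut larvae (SD, n = 2 each). The aboral mean was 6.51 times the oral mean. The log2 change was 2.7 ± 0.30 (SE), with an interval of 2.02 to 3.38 and an edgeR adjusted p of 0.000267, at rank 287 of 15599. Within replicate 1 the aboral to oral ratio of pp11-GLWamide was 6.04, and within replicate 2 it was 7.32. The same ratio of pp2-GLWamide was 147 within replicate 1 and 179 within replicate 2.

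**Figure D1:**
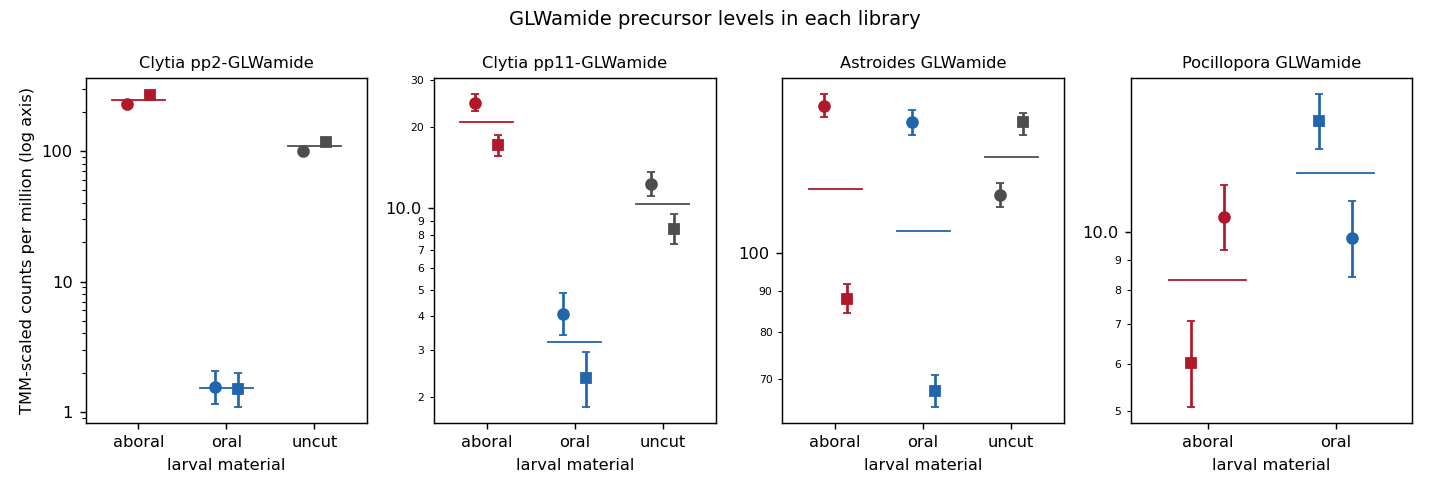
TMM-scaled CPM (log axis, a separate range in each panel) of the 4 precursors in every library, by larval material. Squares are replicate 2 or colony C5, circles are replicate 1 or colony C3, bars are 95% counting intervals and lines are group means. The aboral libraries of pp2-GLWamide, at 229 and 267 CPM, lie far above the oral ones, at 1.56 and 1.49 CPM, whereas the groups of the coral precursors overlap.

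The 2 Clytia precursors did not share a replicate difference. Replicate 2 over replicate 1 gave a log2 difference of -0.52 in aboral, -0.80 in oral and -0.55 in uncut libraries for pp11-GLWamide. For pp2-GLWamide these differences were 0.22, -0.07 and 0.23. Among the genes with a mean of at least 10 CPM, 98.3%, 99.7% and 98.7% differed less between the replicates than pp11-GLWamide did in the aboral, oral and uncut groups. What separates the replicates was not tested.

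The balance of the 2 precursors therefore differed between the ends. There were 9.30 and 15.6 counts of pp2-GLWamide for each count of pp11-GLWamide in the aboral libraries, 0.383 and 0.635 in the oral libraries, and 8.14 and 14 in the uncut libraries. These ratios carry the unknown lengths of both genes, so only their change between libraries can be read. The aboral and oral ranges did not overlap, and the uncut libraries lay close to the aboral ones. The difference in log2 ratio, aboral minus oral, was 4.61, a 24.4-fold shift. An exact permutation test (two-sided, n = 2 each) gave p = 0.33, which is the smallest p that 6 splits allow. This test leaves out the presumed pairing of replicates, and it could not pass the threshold. Within replicate 1 the log2 shift was 4.60, and within replicate 2 it was 4.62.

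**Figure D2:**
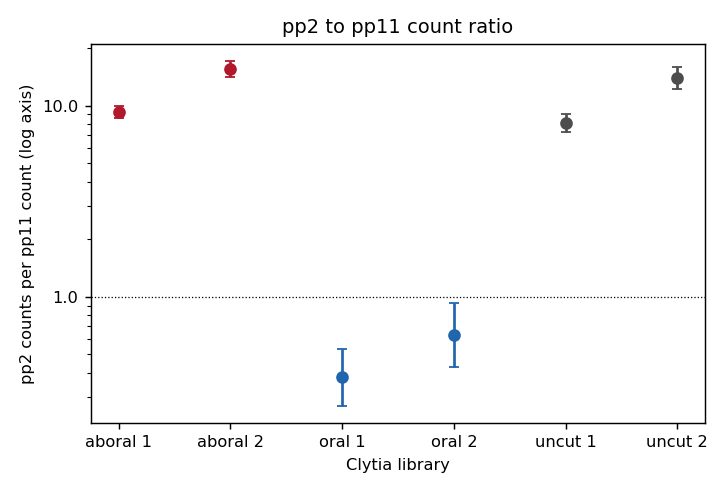
Counts of pp2-GLWamide per count of pp11-GLWamide (log axis) in each Clytia library, with 95% counting intervals and a dotted line at equal counts. The aboral libraries stand at 9.30 and 15.6, the oral ones at 0.383 and 0.635 and the uncut ones at 8.14 and 14, and in each group replicate 2 is the higher.

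Uncut Clytia larvae lay between the ends for both precursors. Aboral ends held more pp2-GLWamide than uncut larvae, with a log2 change of 1.19 ± 0.11 (SE) and an edgeR adjusted p of 0.000602, in a comparison that called 12.2% of genes. Oral ends held less, with a log2 change of -6.15 ± 0.15 and an adjusted p of 2.91e-07, where 6.91% of genes were called. On a linear scale where oral ends are 0 and aboral ends 1, the uncut mean of pp2-GLWamide stood at 0.435, and it stood at 0.432 within replicate 1 and 0.437 within replicate 2.

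For pp11-GLWamide, aboral ends against uncut larvae gave a log2 change of 1.01 ± 0.26 (SE) with an edgeR adjusted p of 0.0427. This call was lost when any 1 of the aboral or uncut libraries was left out, with changes of 0.73 (without aboral replicate 1), 1.25 (without aboral replicate 2), 1.31 (without uncut replicate 1) and 0.75 (without uncut replicate 2). With the replicate number as a block the change was 1.02, with an adjusted p of 3.41e-05. Oral ends against uncut larvae gave -1.69 ± 0.30 with an adjusted p of 0.0125, and without uncut replicate 1 this became -1.39 with an adjusted p of 0.0771. The uncut mean of pp11-GLWamide stood at 0.404 on the scale from oral to aboral.

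In Astroides, the GLWamide precursor was about as abundant in aboral as in oral ends, and its replicates differed more than its ends. STRG.15971 had 152 and 88.0 CPM in aboral ends, 145 and 67.8 CPM in oral ends, and 118 and 145 CPM in uncut larvae. The 3 groups overlapped. Replicate 1 was the higher library at both ends, by 1.73 times in aboral and 2.14 times in oral ends, whereas replicate 2 was the higher uncut library, by 1.23 times. Means of STRG.15971 were 120 ± 45.4 CPM in aboral ends, 106 ± 54.7 CPM in oral ends and 131 ± 18.9 CPM in uncut larvae (SD, n = 2 each).

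The log2 change of STRG.15971, aboral over oral, was 0.17 ± 0.39 (SE), with an interval of -0.76 to 1.11 and an edgeR adjusted p of 0.897, in a comparison that called 6.99% of genes. Within replicate 1 the aboral to oral ratio was 1.05, and within replicate 2 it was 1.30. Leaving out 1 library, which breaks a presumed pair, turned the direction to -0.28 without aboral replicate 1 and to -0.27 without oral replicate 2. Against uncut larvae, aboral ends gave -0.13 ± 0.39 (adjusted p = 0.920, edgeR) and oral ends -0.30 ± 0.39 (adjusted p = 0.907, edgeR), where 0.546% and 1.02% of genes were called. The uncut mean lay above both end means, so no position between the ends is given. The interval of this change, which reached 1.11 at its upper end, did not include the change of 7.34 seen for pp2-GLWamide.

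In Pocillopora the precursor had few counts, and it was lower in the aboral than in the oral library of colony C5, while the libraries of colony C3 lay within counting error of each other. XP_027060553 had 6.03 CPM (colony C5) and 10.6 CPM (colony C3) in aboral ends, and 15.4 CPM (C5) and 9.77 CPM (C3) in oral ends. These levels rested on 143 and 257 counts in aboral ends and on 351 and 189 counts in oral ends. The groups of XP_027060553 overlapped, since the aboral C3 library lay above the oral C3 library. Within C5 the aboral to oral ratio was 0.392, with a 95% counting interval of 0.321 to 0.478. Within C3 it was 1.08, with an interval of 0.895 to 1.32. These intervals cover counting error only, and not differences between the few larval ends in each pool. With 1 library per end and colony the difference between colonies was not tested.

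The log2 change of XP_027060553, aboral over oral with the colony as a block, was -0.61 ± 0.38 (SE), with an interval of -1.59 to 0.36 and an edgeR adjusted p of 0.375, where 8.05% of genes were called. Colony C5 against C3 gave -0.07 ± 0.38 (adjusted p = 0.916, edgeR), in a comparison that called 19.2% of genes. Without the colony block, edgeR called 0 of 17164 genes between the ends (1587 at an unadjusted p under 0.05, and 706 by DESeq2). The edgeR calls between the ends within Pocillopora therefore rest on that block. Means of XP_027060553 were 8.31 ± 3.23 CPM in aboral ends and 12.6 ± 3.95 CPM in oral ends (SD, n = 2 each).

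The change between ends was next compared between species, in fits that held no replicate or colony block. The precursors were paired by the curated marker list of the study, which sets pp2-GLWamide beside the coral precursors and gives pp11-GLWamide no partner, and the other genes of the fit were pairs that its tables give as 1 to 1. The aboral over oral log2 change of pp2-GLWamide exceeded that of the Astroides precursor by 7.17 ± 0.57 (SE), with an interval of 5.87 to 8.47 and an edgeR adjusted p of 6.64e-06. It exceeded that of the Pocillopora precursor by 7.94 ± 0.50, with an interval of 6.77 to 9.11 and an adjusted p of 3.8e-05. The difference between the corals was not called, at 0.77 ± 0.73 for Astroides minus Pocillopora, an interval of -0.94 to 2.48 and an adjusted p of 0.431. These other pairs came mostly from genes that the study had called at an end, and 91.9%, 84.2% and 39.7% of all pairs were called in the same 3 comparisons. By size of difference, the precursor pair ranked 6 of 149 for Clytia with Astroides, 3 of 133 for Clytia with Pocillopora and 222 of 300 for Astroides with Pocillopora. Over all pairs the median difference was 1.76 for Clytia minus Astroides and 1.74 for Clytia minus Pocillopora. The paper proposes that cell types of the aboral pole are more diluted in fragments of the larger coral larvae. The part of such dilution in these differences was not tested.

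A further table of the study names another Clytia gene, XLOC_040584, as the best hit of the Pocillopora precursor. It encodes a secreted protein with no known domain. XLOC_040584 had 93.2 and 105 CPM in aboral ends, 2.65 and 2.79 CPM in oral ends, and 46.4 and 48.5 CPM in uncut larvae. Its log2 change, aboral over oral, was 5.19 ± 0.11 (SE, edgeR adjusted p = 5.95e-08), so either choice of Clytia partner was a gene far higher in aboral ends.

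Other neuropeptide precursors were measured in the same libraries. In Clytia, 4 of 5 other precursors rose in aboral ends and none fell, where 18.4% of all genes tested were called higher. Those that rose are also listed markers of QYFamide or HFRIamide neurons, and are counted again among them below. The study picked these neuron types as aboral with the help of these same libraries, so this share is not independent evidence of direction. Their median log2 change was 3.28 against -0.01 over all genes. The log2 change was 8.46 for pp8-RPRPamide, 7.91 for pp14-FLFamide, 3.28 for HFRIamide and 2.77 for pp9-QYFamide. The precursor IPYFAN-no_amide, a listed marker of the GLWamide neurons, stood at 0.19 and did not pass the test (edgeR adjusted p = 0.157), although it passed with a replicate block (adjusted p = 0.0225).

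In Astroides, where 3.47% of all genes were called higher in aboral ends, 2 of 3 other precursors rose and 1 fell. HFRIamide changed by 1.16 ± 0.13 (SE) and RFamide by 0.90 ± 0.16 on the log2 scale, aboral over oral, and GVWamide fell by 1.55. The RFamide call was lost without aboral replicate 1, without aboral replicate 2 or without oral replicate 2. In Pocillopora, where 3.82% of genes were called higher, 1 of 3 rose and 1 fell. RFamide (XP_027051563) changed by 2.85 ± 0.55, and GVWamide fell by 1.31. The RFamide call (edgeR adjusted p = 0.0445) was lost with RLE size factors (2.85, adjusted p = 0.0589) and without the colony block (adjusted p = 0.421). Fits without 1 of the 4 libraries gave changes of 1.93 to 3.96. Those fits also left out the colony block, so they cannot show whether the call rests on a single library. The GVWamide (XP_027059473) call was lost without the block (edgeR adjusted p = 0.486). Without 1 library, and again without the block, its log2 change ranged from -1.76 to -0.91. HFRIamide (XP_027045495) stood at 1.75 ± 0.52 (edgeR adjusted p = 0.109) and passed with DESeq2 (1.80, adjusted p = 0.0029).

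**Figure D3:**
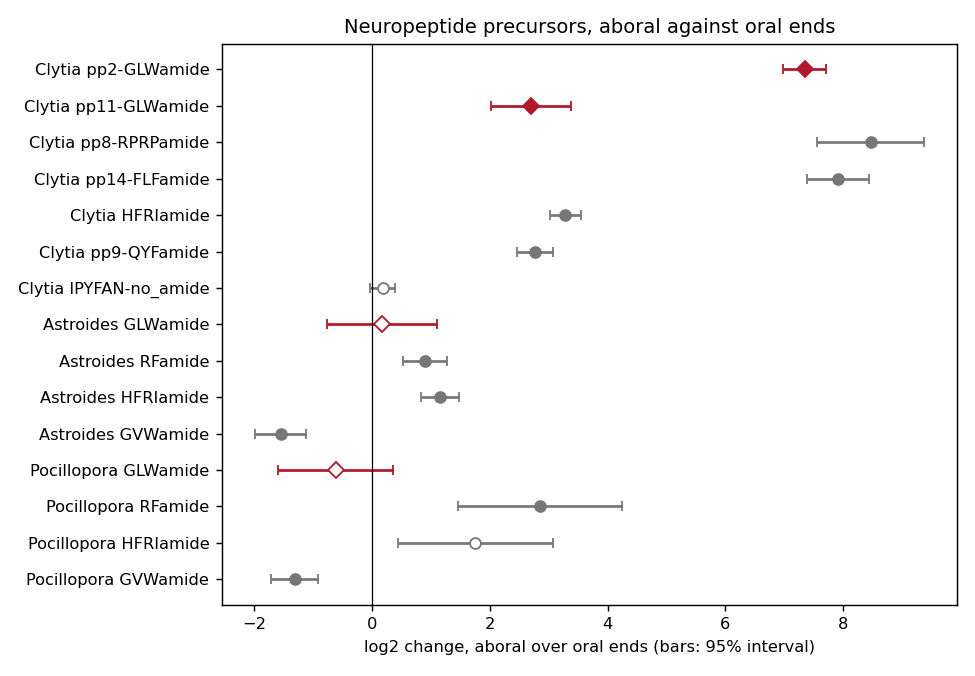
Log2 change, aboral over oral ends, of the GLWamide precursors (red diamonds) and of other neuropeptide precursors (grey circles) by species, with 95% intervals. Filled symbols passed an adjusted p of 0.05. The Clytia precursors stand at 7.34 and 2.7, and the intervals of the Astroides (-0.76 to 1.11) and Pocillopora (-1.59 to 0.36) precursors span 0.

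The enzymes that process precursors were then examined. In Clytia, the zinc carboxypeptidases XLOC_002079 and XLOC_004676 rose in aboral ends, by 2.09 ± 0.14 and 2.46 ± 0.30 on the log2 scale, and XLOC_036675, a listed ortholog of a proprotein convertase, fell by 0.56. In Pocillopora, 3 of 3 enzymes rose, where 3.82% of all genes were called higher. They were the convertase XP_027040049 (2.00 ± 0.23), the zinc carboxypeptidase XP_027051936 (1.80 ± 0.32) and the convertase PCSK5-like (1.66 ± 0.20). In Astroides, 0 of 2 were called, where 6.99% of all genes were. Its zinc carboxypeptidase STRG.18268 stood at -0.47 ± 0.23 and its listed convertase STRG.17272 at 0.74 ± 0.38, with adjusted p of 0.374 and 0.393 and unadjusted p of 0.0839 and 0.0912 in the same edgeR fit across all genes. The enzymes are not a separate set from the markers that follow. XLOC_002079, STRG.18268, XP_027051936 and PCSK5-like are also listed markers of GLWamide neurons and are counted again among them.

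Single-cell markers of GLWamide neurons, as the study listed them and with the precursors left out, were likewise mostly higher in aboral ends in Clytia. These lists came from single-cell data, but the study picked the aboral cell types with the help of these libraries, so they are not independent evidence of direction. For GLWamide cells of both corals, the study's own Fisher's exact test of aboral enrichment was not significant. Its antibody staining of the peptide in Astroides showed cell bodies in an aboral-lateral zone. In Clytia, 15 of 18 markers rose in aboral ends, where 18.4% of all genes did, and none fell. Their median log2 change was 3.0. The summed level of the list was 847 to 868 CPM in aboral ends, 380 to 413 CPM in oral ends and 608 to 616 CPM in uncut larvae. The 5 largest changes were XLOC_014127 at 5.61, the secreted fibrinogen domain gene XLOC_013581 at 5.18, XLOC_041404 at 5.07, the GABBR2-like receptor XLOC_003734 at 4.55 and XLOC_009102 at 3.54. Of the 18 markers, 10 were called higher in aboral ends than in uncut larvae and 11 were called lower in oral ends than in uncut larvae, where 7.48% and 5.78% of all genes were.

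In Astroides, 4 of 16 tested markers rose (3.47% of all genes) and none fell, with a median of 0.00, equal to that of all genes at this precision. The 4 were Short-tm (5.42), a short transmembrane protein, the channel TRP-like (1.93), the homeobox gene EMX-like (1.63) and the GABA-A receptor subunit GABRB1-like (1.60). The list summed to 429 to 688 CPM in aboral ends, 179 to 180 CPM in oral ends and 509 to 521 CPM in uncut larvae. Most of this difference came from Short-tm (STRG.18164), and without it, a choice made after its values were seen, the list summed to 227 to 251 CPM in aboral ends, 170 to 174 CPM in oral ends and 198 to 217 CPM in uncut larvae. Without aboral replicate 2 the count of markers that rose was 2. In Pocillopora, 5 of 15 rose (3.82% of all genes) and none fell, with a median of 0.62 against -0.03 over all genes. They were Short-tm (2.41), FGF22-like (2.05), the zinc carboxypeptidase (1.80), PCSK5-like (1.66) and GABBR2-like XP_027036429 (1.04). The Pocillopora list summed to 592 to 801 CPM in aboral ends and 427 to 469 CPM in oral ends.

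**Figure D4:**
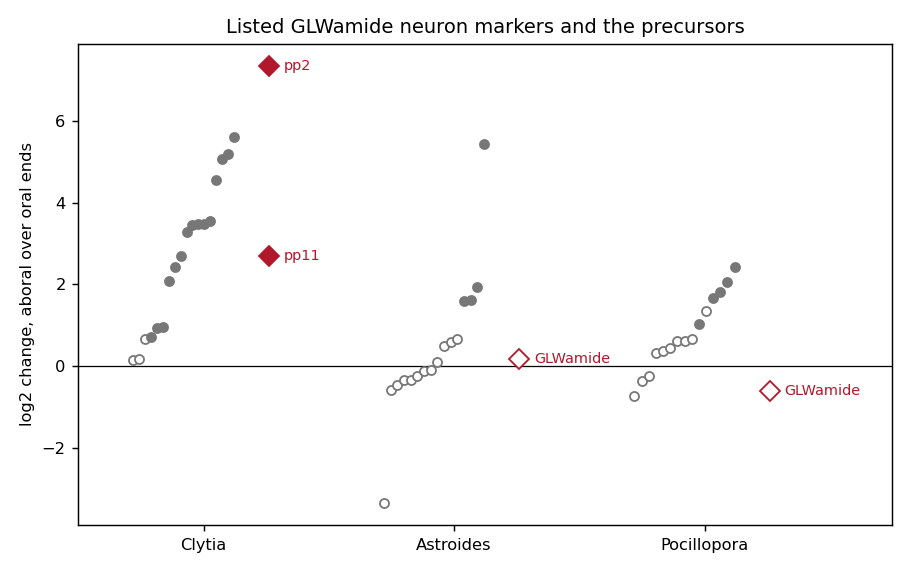
Log2 change, aboral over oral ends, of the listed GLWamide neuron markers (grey circles, sorted within species) and of the precursors (red diamonds). Filled symbols passed an adjusted p of 0.05. In Clytia 15 of 18 markers are filled and pp2-GLWamide (7.34) lies above all of them, and in the corals 4 of 16 and 5 of 15 are filled while the precursors are open.

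Receptors of the GABA type were of interest because the lists place them in GLWamide neurons. The exception was STRG.30141 of Astroides, which entered only as a listed ortholog of the Clytia receptor. The Clytia gene GABBR2-like (XLOC_003734), a metabotropic type, had 33.1 and 32.6 CPM in aboral ends, 1.78 and 1.01 CPM in oral ends and 14 and 13.4 CPM in uncut larvae. Its listed ortholog in Pocillopora, XP_027036429, rose by 1.04 ± 0.13 on the log2 scale, whereas that in Astroides, STRG.30141, stood at 0.20 ± 0.39. The level of STRG.30141 was low, with means of 1.09 CPM in aboral ends and 0.946 CPM in oral ends. The other Pocillopora receptors were not called, at 0.62 for GABRB1-like, 0.44 for GABBR1-like and 0.61 for a second GABBR2-like gene, XP_027040340.

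Markers common to neurons were set beside the coral precursors. In Astroides ELAV, an RNA-binding protein of neurons, stood at 0.45 ± 0.13 (edgeR adjusted p = 0.110) and passed with a replicate block (adjusted p = 0.0298) and with DESeq2 (adjusted p = 0.0478). The neurogenic factor AshA stood at 0.36 ± 0.18 (adjusted p = 0.380, edgeR). In Pocillopora ELAV stood at -0.13 ± 0.12 and AshA at 0.10 ± 0.19 (adjusted p = 0.550 and 0.769, edgeR).

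Markers of other aboral cells moved with the Clytia precursors. The study picked the neurosecretory, HFRIamide, QYFamide and apical cell types as aboral with the help of these same libraries. It did the same for the gland mucous type of the corals. The shares of all these types are therefore not independent evidence of direction. In aboral against oral ends, 18 of 18 markers of neurosecretory cells rose, where 18.4% of all genes did, with a median log2 change of 6.42, as did 14 of 14 tested markers of HFRIamide neurons (median 4.34), 24 of 26 of QYFamide neurons (2.13) and 6 of 7 of gland mucous cells (1.26). The remaining gland mucous marker fell. The neurosecretory markers summed to 5073 to 5814 CPM in aboral ends, 32.5 to 37.6 CPM in oral ends and 2088 to 2651 CPM in uncut larvae. Markers of HFRIamide neurons reached 1814 to 1819 CPM in aboral ends, 93.5 to 95.2 CPM in oral ends and 765 to 791 CPM in uncut larvae. Those of QYFamide neurons amounted to 337 to 363 CPM in aboral ends, 95.1 to 108 CPM in oral ends and 196 to 214 CPM in uncut larvae. Gland mucous markers totalled 6698 to 7349 CPM in aboral ends, 2861 to 2916 CPM in oral ends and 4481 to 5009 CPM in uncut larvae. No marker of these lists was at 0 in all libraries. In the corals, markers of other aboral cells rose in shares that varied by list, while the GLWamide precursor was not called. Apical cell markers rose in 25 of 28 cases in Astroides (median 4.38) and in 18 of 24 in Pocillopora (2.87), where 3.47% and 3.82% of all genes were called higher. Tested markers of gland mucous, neurosecretory 1 and neurosecretory 2 cells rose in 31 of 38, 16 of 18 and 5 of 7 cases in Astroides. In Pocillopora these shares were 32 of 41, 16 of 28 and 5 of 24. The summed level of apical cell markers in Astroides was 3997 to 5087 CPM in aboral ends, 826 to 921 CPM in oral ends and 2367 to 2821 CPM in uncut larvae. In Pocillopora it was 6070 to 7396 CPM in aboral ends and 2533 to 3504 CPM in oral ends. The part of each cell type in the precursor levels was not tested.

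The genes nearest in pattern to each precursor were those with the smallest distance between profiles of log2(CPM + 1), centred on their mean over the libraries of the species, among genes with a mean of at least 10 CPM. Over 6 libraries and 8676 Clytia genes, the 5 nearest to pp2-GLWamide were XLOC_037157 (distance 0.107), MSTRG.2348 (0.118), the growth factor FGFa1 (0.432), the secreted planula protein PF1_17 (0.469) and XLOC_033074 (0.548). XLOC_037157 had 130 and 149 CPM in aboral ends, 0.510 and 0.412 CPM in oral ends, and 57.1 and 62.4 CPM in uncut larvae. Of the 18 listed markers of GLWamide neurons, 6 had a mean of at least 10 CPM and could be ranked, and the nearest of them, XLOC_013581, came at rank 50.

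Nearest to pp11-GLWamide were XLOC_012828 (distance 0.342), with an aldolase and adducin domain, the claudin family gene XLOC_035261 (0.407), the astacin peptidase XLOC_019092 (0.484), XLOC_007747 (0.517) and the EGF domain gene MSTRG.21021 (0.518). Among the same 6 markers, the nearest was the zinc carboxypeptidase XLOC_002079, at rank 36.

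In Astroides, STRG.5461 lay nearest to the precursor STRG.15971, at a distance of 0.077, and had the same split of replicates. STRG.5461 had 50.7 and 28.5 CPM in aboral ends, 48.4 and 23.1 CPM in oral ends, and 37.9 and 47.7 CPM in uncut larvae. It was followed by STRG.31416 (0.283), STRG.22486 (0.287), STRG.21648 (0.289) and STRG.39232 (0.339), and 60 of 10477 genes lay within a distance of 0.5. In Pocillopora, over 4 libraries, XP_027042343 was nearest to XP_027060553, at 0.156, and also had its lowest level in the aboral C5 library. XP_027042343 had 30.3 (C5) and 48.5 (C3) CPM in aboral ends, and 62.6 (C5) and 46.8 (C3) CPM in oral ends. The others were XP_027035909 (0.288), XP_027056928 (0.319), XP_027053837 (0.361) and XP_027054506 (0.417).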

How the data were processed

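Total RNA of pooled larval ends and uncut larvae was sequenced as paired-end reads by the study. The deposited files hold unnormalised counts for each gene model, which the authors obtained from STAR alignments, without lengths or coordinates, and the strand setting was not stated. Counts were tested 1 species at a time in R 4.3.3 with edgeR 4.0.16, after filterByExpr and TMM scaling, which kept 15599 Clytia, 21254 Astroides and 17164 Pocillopora genes. The Clytia and Astroides fits held all 6 libraries without a block. The fit of the 4 Pocillopora libraries included colony as a block. Tests were two-sided. Orthologs were compared as a species by end interaction without a replicate or colony block, with effective library sizes as offsets.

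Clytia and Astroides libraries with the same number were taken as pairs, because the study counted aboral, oral and uncut material per biological replicate. The sample labels do not state a shared batch. The main fits hold no block, so their errors and p-values do not use the pairing, which entered as an alternative. Replicate differences of the groups correlated across genes at r = 0.367 to 0.548 in Clytia, 0.257 to 0.716 in Astroides and, between colonies, 0.827 in Pocillopora. Nothing states that replicates were separate cultures in Clytia, so p-values measure the spread between these samples.

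Members, gene lists and tests were chosen with earlier results of these data known. Named were the 4 members, each gene of the lists of neuropeptide precursors, processing enzymes, GABA type receptors and pan-neural markers, the listed best hit, the 5 largest called changes among GLWamide neuron markers and the 5 nearest genes in pattern. Alternatives were RLE size factors, library totals, no filter, DESeq2 1.42.0, the replicate block, aboral and oral libraries alone, and leaving out each library. For Pocillopora, the fits that left out a library also left out the colony block. Scripts were tested on simulated data.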

Additional observations from a re-analysis of the deposited data

Results flagged for a closer look

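The aboral over oral change of the GLWamide precursor differed between species. It was 7.17 log2 units larger for Clytia pp2-GLWamide than for the Astroides precursor and 7.94 log2 units larger than for the Pocillopora precursor, both past the interaction test in edgeR. The median differences over all pairs of these comparisons were 1.76 and 1.74, also larger in Clytia. The part of dilution of aboral cells in the larger coral fragments was not tested. In Pocillopora the log2 ratio of aboral to oral ends was -1.35 within colony C5 and 0.12 within colony C3, of opposite sign. The counting interval of the ratio was 0.321 to 0.478 within C5 and 0.895 to 1.32 within C3, and the last spans no change. These intervals leave out differences between the few larval ends in each pool. With 1 library per end and colony, the difference between colonies was not tested.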

How the results depend on the processing

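Both Clytia precursors kept their aboral over oral calls under every alternative run. Leaving out single libraries gave 7.23 to 7.45 for pp2-GLWamide and 2.35 to 3.15 for pp11-GLWamide (log2). Against uncut larvae, pp11-GLWamide ranged from 0.73 to 1.31 in aboral ends and from -2.14 to -1.35 in oral ends. STRG.15971 ranged from -0.28 to 0.81 (aboral over oral), from -0.56 to 0.19 (aboral over uncut) and from -0.94 to 0.14 (oral over uncut), and was called in none. XP_027060553, colony C5 over C3, turned to 0.033 with library totals only. The uncut position was 0.441 (pp2) and 0.411 (pp11) with library totals only, and ranged from 0.399 to 0.471 and from 0.294 to 0.513 without single libraries. Direction also turned, with no call, for 8 named genes: STRG.5461 (-0.33 to 0.75), STRG.31416 (-0.28 to 1.10), STRG.22486 (-0.20 to 0.61), STRG.21648 (-0.32 to 0.67), STRG.39232 (-0.43 to 0.71), XP_027040340 (-0.11 to 1.23), XP_027040858 (-0.076 to 1.26) and XP_027048862 (-0.035 to 0.28).

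Genes called with the replicate block numbered 4250 (Clytia aboral against uncut), 2675 (Clytia oral against uncut), 2611 (Astroides aboral against oral), 712 (Astroides aboral against uncut) and 610 (Astroides oral against uncut), against 1902, 1078, 1485, 116 and 216 without it. The block changed no call of a GLWamide precursor. DESeq2 called 645 (Astroides aboral against uncut) and 605 (oral against uncut). Without the colony block, edgeR called 0 Pocillopora genes (1587 at an unadjusted p under 0.05) and DESeq2 706. Leaving out single libraries gave 516 to 1995 (Clytia aboral against uncut), 634 to 974 (Clytia oral against uncut), 520 to 1099 (Astroides aboral against oral), 13 to 96 (Astroides aboral against uncut), 99 to 172 (Astroides oral against uncut) and 0 to 0 (Pocillopora, 632 to 1683 unadjusted). The Pocillopora fits without single libraries also left out the colony block, and without that block edgeR called 0 genes even with every library kept. The cause of these shifts was not tested. The colony comparison was not run without single libraries, since no residual degree of freedom remained.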

Other observations

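In the Clytia count files, the rows of pp11-GLWamide and pp2-GLWamide stand next to each other, at rows 15279 and 15280. Neither neighbouring row was called between the ends: XLOC_017098 stood at -0.01 ± 0.11 (SE) and XLOC_017093 at -0.19 ± 0.08 on the log2 scale, aboral over oral (edgeR adjusted p = 0.972 and 0.123). What the row order means is not stated, and whether reads of the precursors can be assigned to the other was not tested.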
